A study of Mus musculus with 9 samples.

Results

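The CXC chemokines examined here are 10 genes, Cxcl1, Cxcl2, Cxcl3, Cxcl9, Cxcl10, Cxcl13, Cxcl14, Cxcl16, Pf4 and Ppbp, chosen by gene symbol. All 10 were found on the arrays, by 16 of 45101 probe sets, and they were tested among 18193 genes with 1 kept probe set each. The samples were 4 cell populations sorted from lungs of female mice of the 4get line on a BALB/c background, aged 6 to 8 weeks, whose green fluorescent protein reports Il4 expression. Every mouse had received 0.5 µg of recombinant IL-25, a cytokine that starts type 2 inflammation, into the trachea daily for 4 days, and no untreated group was analysed here. Lung cells enriched for CD11b were pooled from 4 donor mice, 400000 cells were sorted for each sample, and 50 ng of RNA was amplified for an Affymetrix array. The labels do not say whether replicates came from separate pools.

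Sorting was by reporter, surface receptors and Gr-1, among cells positive for CD11b. Cells labelled T2M (3 arrays) expressed the reporter and F4/80, lacked the alpha chain of the IL-5 receptor, had little MHC class II and a middle level of Gr-1. Cells labelled eosinophils (2 arrays) had the IL-5 receptor chain and much Gr-1, little MHC class II, and neither reporter nor F4/80. Cells labelled neutrophils (2 arrays) had Gr-1, little MHC class II, and no reporter, IL-5 receptor chain or F4/80. Cells labelled macrophages (2 arrays) had F4/80 and MHC class II, and neither reporter, IL-5 receptor chain nor Gr-1.

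CXC chemokines are small secreted proteins that guide leukocytes through G protein-coupled receptors. Those with the tripeptide ELR before their first cysteine, such as the products of Cxcl1, Cxcl2 and Cxcl3, bind CXCR2 and draw neutrophils. The products of Cxcl9 and Cxcl10 are induced by interferons and draw activated T cells and natural killer cells through CXCR3. The Cxcl13 product draws B cells through CXCR5, and Cxcl16 encodes a membrane-bound ligand of CXCR6. Pf4 (platelet factor 4) and Ppbp (pro-platelet basic protein) are best known from platelet granules.

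Promoters are shown for Cxcl1, Cxcl2 and Cxcl3, neutrophil-attracting genes that were all low in macrophage-labelled samples. That of Cxcl10, which followed another order of labels, is shown too. Each runs from 250 bases before to 50 bases after the transcription start in RefSeq's mouse assembly GRCm38.p6, 5′ to 3′ on the gene's own strand. The windows are chr5:90890995-90891294 (plus strand) for Cxcl1, chr5:90903649-90903948 (plus) for Cxcl2, chr5:90785851-90786150 (plus) for Cxcl3 and chr5:92348840-92349139 (minus) for Cxcl10. Capitals mark matches on either strand to the NF-kappaB consensus and to the interferon-stimulated response element GAAANNGAAA.
Cxcl1: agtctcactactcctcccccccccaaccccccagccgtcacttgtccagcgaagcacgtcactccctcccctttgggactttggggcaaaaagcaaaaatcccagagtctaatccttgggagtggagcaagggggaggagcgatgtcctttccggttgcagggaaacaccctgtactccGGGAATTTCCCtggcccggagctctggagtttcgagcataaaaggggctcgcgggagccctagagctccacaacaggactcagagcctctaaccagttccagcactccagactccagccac
Cxcl2: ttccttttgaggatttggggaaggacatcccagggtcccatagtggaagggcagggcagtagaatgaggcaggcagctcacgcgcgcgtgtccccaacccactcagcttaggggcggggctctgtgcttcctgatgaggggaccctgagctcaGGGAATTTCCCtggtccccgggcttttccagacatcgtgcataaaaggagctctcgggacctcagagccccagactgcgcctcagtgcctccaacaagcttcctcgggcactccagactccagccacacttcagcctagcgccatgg
Cxcl3: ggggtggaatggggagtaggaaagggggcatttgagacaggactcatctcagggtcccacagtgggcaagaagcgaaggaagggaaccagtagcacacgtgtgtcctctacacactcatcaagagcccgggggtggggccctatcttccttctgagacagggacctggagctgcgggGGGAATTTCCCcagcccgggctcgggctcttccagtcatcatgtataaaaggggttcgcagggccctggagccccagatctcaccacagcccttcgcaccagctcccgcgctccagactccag
Cxcl10: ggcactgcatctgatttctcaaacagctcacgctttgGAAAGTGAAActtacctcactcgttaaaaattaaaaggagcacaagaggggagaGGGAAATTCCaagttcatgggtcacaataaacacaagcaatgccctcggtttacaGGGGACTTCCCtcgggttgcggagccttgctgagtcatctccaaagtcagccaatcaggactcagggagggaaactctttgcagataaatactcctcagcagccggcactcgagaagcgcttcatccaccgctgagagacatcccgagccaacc

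In each of the Cxcl1, Cxcl2 and Cxcl3 windows the capitals spell the same letters, which match the NF-kappaB consensus on both strands in overlapping positions. The match began 71 bases before the start in Cxcl1, 97 bases before it in Cxcl2 and 73 bases before it in Cxcl3. In the Cxcl10 window the interferon element began 213 bases before the start, and NF-kappaB matches began 159 bases and, in an overlapping cluster, 104 bases before it. Of 9 members with a promoter in the table, these 4 matched the NF-kappaB consensus, against 8.46% of 32851 promoters of the same length. The interferon element was matched by Cxcl10 and Cxcl14, against 3.44% of all promoters, and TTCNNNGAA, searched as the gamma-activated site, by Cxcl14, against 8.30%. The letters TATAAA were matched by Ppbp, Cxcl3, Cxcl9 and Cxcl13, against 13.6%. These are matches of letters and show no binding. On chromosome 5 the protein-coding genes Cxcl5, Ppbp, Pf4, Cxcl3, Cxcl15, Cxcl1 and Cxcl2 follow each other in this order, and Cxcl9 and Cxcl10, on the same chromosome, have Art3 between them.

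Marker lists were set against the sorting labels, and several arrays went against their label. The mean log2 level of 6 eosinophil markers was 8.59 to 9.07 on T2M arrays, 5.58 to 6.20 on eosinophil arrays, 4.27 to 6.57 on neutrophil arrays and 4.25 to 4.33 on macrophage arrays. The 8 neutrophil markers were highest on arrays labelled eosinophils, at 11.51 to 11.92, against 7.81 to 8.75 on T2M, 7.92 to 9.44 on neutrophil and 6.68 to 7.68 on macrophage arrays. The mean of the 8 macrophage markers was highest on neutrophil arrays, at 11.08 to 11.13. It was 9.86 to 10.58 on T2M, 9.39 to 9.52 on eosinophil and 9.27 to 9.53 on macrophage arrays. C1qa, C1qc, Mrc1, Apoe and, by little, Csf1r averaged highest in neutrophils, but not every marker did. Cd68 averaged 12.14 in macrophages and 11.71 in neutrophils. Adgre1 averaged 10.29 in T2M and 9.66 in neutrophils, and C1qb 12.39 and 12.16. The mean of the 7 dendritic cell markers was highest on macrophage arrays, at 8.75 to 9.05. It was 6.27 to 7.22 on T2M, 5.75 to 6.02 on eosinophil and 6.77 to 7.47 on neutrophil arrays. All of these markers but Itgae averaged highest in macrophages. Itgae averaged 6.74 there, against 8.23 in T2M and 8.23 in eosinophils. The names T2M, eosinophils, neutrophils and macrophages below are thus only the labels given to the arrays. Neutrophil replicate 2 correlated at 0.954 with each macrophage array and at 0.915 with neutrophil replicate 1, over all probe sets. The macrophage arrays correlated at 0.994 with each other, against 0.915 to 0.970 for other replicate pairs. If these 2 arrays share 1 source, which the labels do not settle, every comparison with macrophages rests on 1 macrophage sample. They were therefore also averaged as 1, with its spread assumed to be that of the other labels, and the calls lost in that fit are given with each gene. In such bulk samples, fewer cells of a type and less RNA per cell cannot be told apart.

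**Figure D1:**
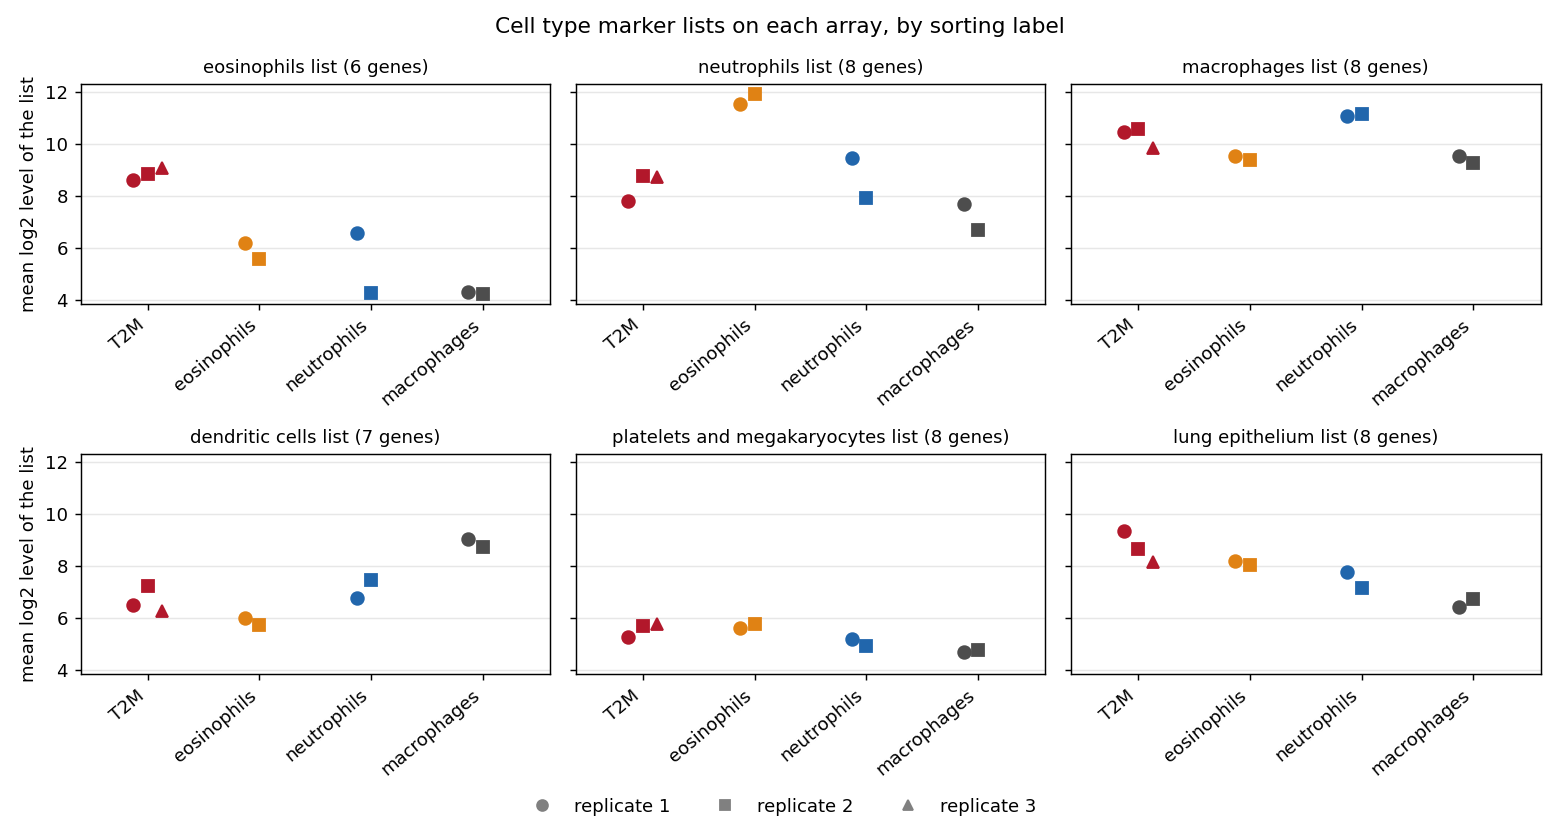
Mean log2 level of marker lists (y axis) on each array, by sorting label (x axis); each symbol is 1 array and its shape the replicate number. The eosinophil list was highest on T2M arrays (8.59 to 9.07), the neutrophil list on eosinophil arrays (11.51 to 11.92) and the dendritic cell list on macrophage arrays (8.75 to 9.05).

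A moderated F test in limma asked of each gene whether its level varied among the 4 labels at all. Of the 10 chemokine genes, 6 passed at an adjusted p under 0.05, against 17.8% of all genes: Cxcl3 (adjusted p = 3.44e-04), Pf4 (7.64e-04), Cxcl1 (7.95e-04), Cxcl2 (0.00218), Cxcl10 (0.00946) and Ppbp (0.0396). Cxcl9 (adjusted p = 0.0694), Cxcl16 (0.115), Cxcl13 (0.128) and Cxcl14 (0.158) did not. The Ppbp call was lost when any T2M array, eosinophil replicate 1 or either macrophage array was left out, and the Cxcl10 call when macrophage replicate 2 was (adjusted p = 0.0549). With the macrophage arrays averaged, the calls of Cxcl10 (adjusted p = 0.0514) and Ppbp (0.126) were lost, and 4 of 10 members passed, against 5.30% of all genes. Without neutrophil replicate 1 all 10 members passed, against 25.4% of all genes. Without neutrophil replicate 2 Cxcl9, Cxcl13 and Cxcl14 passed besides the 6, against 30.0% of all genes.

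**Figure D2:**
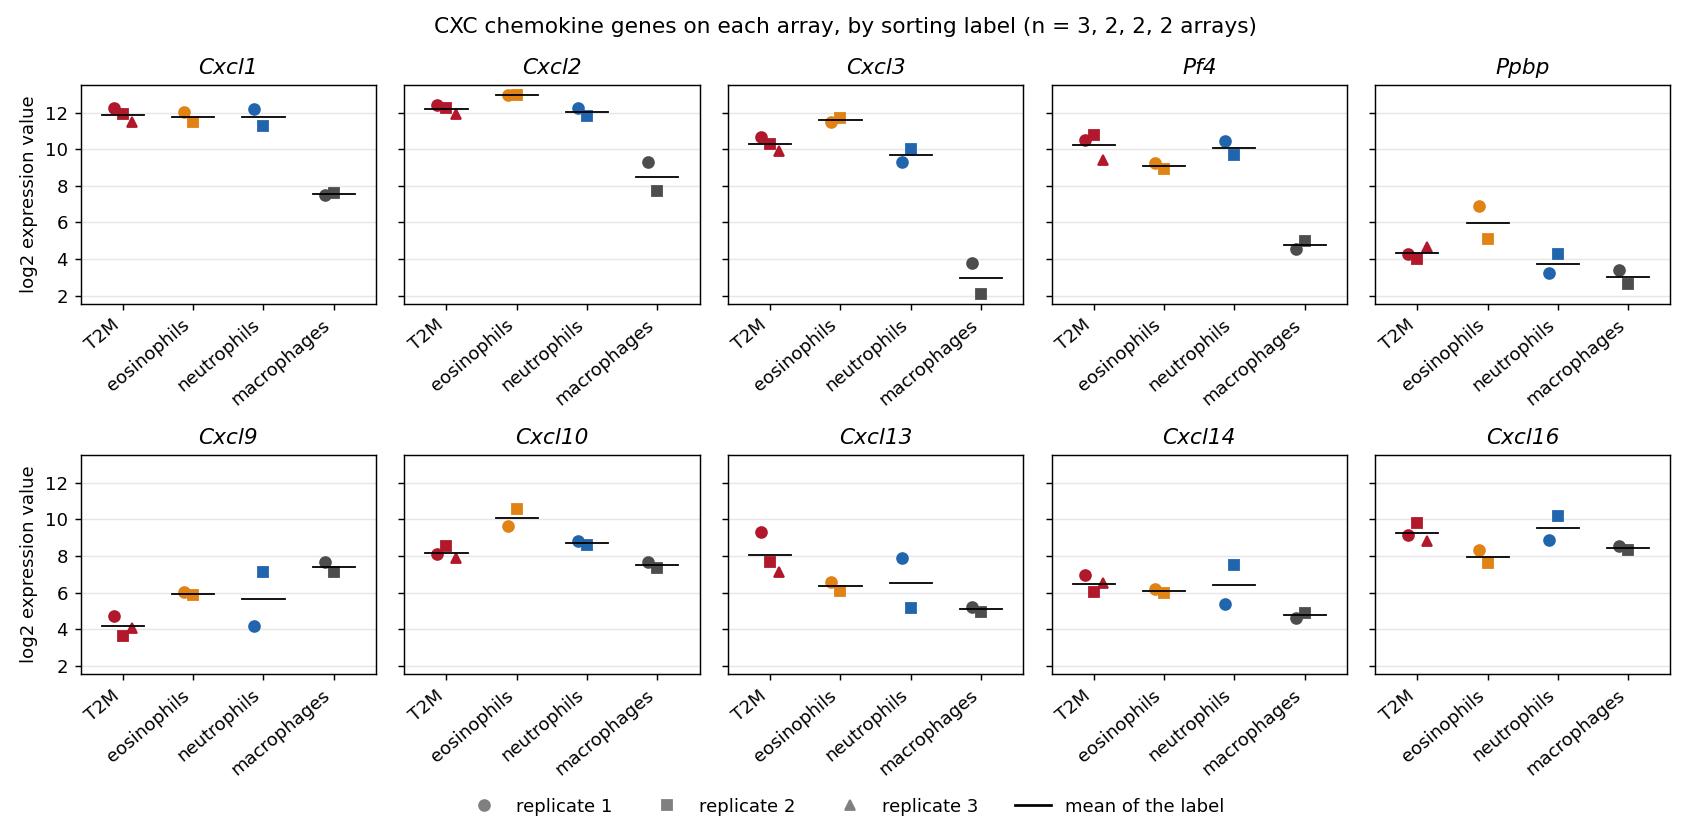
Log2 expression values (y axis) of the 10 chemokine genes on each of the 9 arrays, by sorting label (x axis); each symbol is 1 array, its shape the replicate number, and lines are label means. Cxcl1, Cxcl2, Cxcl3 and Pf4 were lowest on both macrophage arrays, and Cxcl9 was highest there, at 7.67 and 7.15, with neutrophil replicate 2 at the same level.

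The CXCR2 ligand genes Cxcl1, Cxcl2 and Cxcl3 were far higher in T2M, eosinophil and neutrophil samples than in macrophage samples. Ppbp, given below, was not called higher in T2M or neutrophils than in macrophages. Cxcl1 stood at log2 levels of 12.26, 11.91 and 11.47 on T2M arrays, 12.05 and 11.49 on eosinophil arrays, 12.22 and 11.30 on neutrophil arrays, and 7.50 and 7.63 on macrophage arrays. All 7 arrays of the first 3 labels lay above both macrophage arrays and overlapped among themselves. Against macrophages, Cxcl1 was 19.9-fold higher in T2M (4.31 on the log2 scale, SE 0.36, adjusted p = 3.85e-04 by limma). In eosinophils it was 18.5-fold higher (4.21, SE 0.39, adjusted p = 4.85e-04) and in neutrophils 18.3-fold (4.19, SE 0.39, adjusted p = 0.00162).

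Cxcl2 had log2 levels of 12.41, 12.25 and 11.94 on T2M arrays, 12.95 and 12.98 on eosinophil arrays, 12.27 and 11.81 on neutrophil arrays, and 9.29 and 7.72 on macrophage arrays. The eosinophil arrays lay highest, and the macrophage arrays, which differed by more than 1 between themselves, lay lowest. The log2 difference from macrophages was 3.69 in T2M (SE 0.43, adjusted p = 0.00166), 4.45 in eosinophils (SE 0.47, adjusted p = 8.36e-04) and 3.54 in neutrophils (SE 0.47, adjusted p = 0.00796). The last call was lost with array weights (adjusted p = 0.147) and in a fit of those 2 labels alone (0.0876).

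Cxcl3 spanned the widest range of the 10 genes. Its log2 levels were 10.65, 10.30 and 9.89 on T2M arrays, 11.48 and 11.69 on eosinophil arrays, 9.33 and 10.01 on neutrophil arrays, and 3.78 and 2.11 on macrophage arrays. Both eosinophil arrays lay above all T2M and neutrophil arrays, and every one of these lay above both macrophage arrays. The log2 difference from macrophages was 7.34 in T2M (SE 0.48, adjusted p = 1.80e-04), 8.64 in eosinophils (SE 0.53, adjusted p = 1.00e-04) and 6.73 in neutrophils (SE 0.53, adjusted p = 7.61e-04). These correspond to 162-fold, 399.6-fold and 106-fold, but the macrophage values lie at the low end of the scale, and no detection calls were used here. The calls of Cxcl1 and Cxcl3 against macrophages held under every alternative run, with log2 differences of 3.73 to 4.70 for Cxcl1 and 5.89 to 9.48 for Cxcl3.

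Pf4, whose product binds heparin, was high in the same 3 labels. Its log2 levels were 10.50, 10.79 and 9.43 on T2M arrays, 9.27 and 8.91 on eosinophil arrays, 10.47 and 9.68 on neutrophil arrays, and 4.57 and 4.96 on macrophage arrays. The eosinophil arrays lay just under the lowest T2M array, and both macrophage arrays lay far below all others. Against macrophages Pf4 was 44.4-fold higher in T2M (5.47 on the log2 scale, SE 0.43, adjusted p = 3.36e-04), 20.1-fold higher in eosinophils (4.33, SE 0.47, adjusted p = 9.94e-04) and 39.6-fold higher in neutrophils (5.31, SE 0.47, adjusted p = 0.00131). These calls held under every alternative run as well.

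Ppbp, the neighbour of Pf4 and the source of the CXCR2 ligand known as neutrophil-activating peptide, did not share that order. Its log2 levels were 4.29, 4.02 and 4.66 on T2M arrays, 6.88 and 5.09 on eosinophil arrays, 3.23 and 4.28 on neutrophil arrays, and 3.41 and 2.61 on macrophage arrays. The eosinophil arrays alone lay above 5. Ppbp was higher in eosinophils than in macrophages by 2.98 on the log2 scale (SE 0.61, adjusted p = 0.0128). That call was lost without eosinophil replicate 1 (2.08, adjusted p = 0.0530), macrophage replicate 1 (3.38, adjusted p = 0.0538) or macrophage replicate 2 (2.58, adjusted p = 0.102), and with the macrophage arrays averaged (adjusted p = 0.0742). Differences of -1.66 for T2M minus eosinophils (adjusted p = 0.155), 1.31 for T2M minus macrophages (adjusted p = 0.127) and 2.23 for eosinophils minus neutrophils (adjusted p = 0.0626) did not pass; the last was 3.12 without eosinophil replicate 2, where it passed (adjusted p = 0.0315).

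Since Pf4 and Ppbp are platelet genes, 8 other platelet and megakaryocyte genes are given beside them. Their mean log2 level was 5.26 to 5.77 on T2M arrays, 5.63 to 5.78 on eosinophil arrays, 4.93 to 5.19 on neutrophil arrays and 4.71 to 4.78 on macrophage arrays. Against macrophages, 1 of 8 was called higher in T2M, the tubulin gene Tubb1, against 6.53% of all genes. In eosinophils 2 were, Tubb1 and the lectin receptor gene Clec1b, against 5.89%. In neutrophils 0 of 8 were called, near the shares of all genes there, 1.13% higher and 1.13% lower. For T2M minus neutrophils 1 was higher (Tubb1), against 1.25% of all genes, and for eosinophils minus neutrophils 2 (Tubb1 and Clec1b), against 3.55%. For T2M minus eosinophils 0 were called, against 1.57% higher and 2.89% lower. Among those called in no contrast, the integrin gene Itga2b averaged 7.17 in T2M, 6.70 in eosinophils, 6.63 in neutrophils and 6.16 in macrophages. The platelet glycoprotein gene Gp5, at a low level, averaged 4.39 in T2M, 3.98 in eosinophils, 4.005 in neutrophils and 3.70 in macrophages. Gp1bb and Treml1 also averaged highest in T2M. Gp9 averaged highest in eosinophils, at 6.83, against 6.72 in T2M, 6.76 in neutrophils and 6.44 in macrophages. Gp6 did too, at 4.44, against 4.38 in T2M, 4.28 in neutrophils and 3.65 in macrophages. The part of platelet RNA in the Pf4 and Ppbp levels was not tested.

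The interferon-induced members differed from these genes and from each other. Cxcl9 stood at log2 levels of 4.74, 3.63 and 4.09 on T2M arrays, 6.01 and 5.86 on eosinophil arrays, 4.15 and 7.15 on neutrophil arrays, and 7.67 and 7.15 on macrophage arrays. T2M arrays and neutrophil replicate 1 were lowest, macrophage arrays were highest, and neutrophil replicate 2, the array that correlated with the macrophage arrays, lay at their level. Cxcl9 averaged 4.15 ± 0.56 in T2M (SD, n = 3) and 7.41 ± 0.37 in macrophages (SD, n = 2). This difference of -3.26 (SE 0.75, adjusted p = 0.0234, limma) makes it 9.57-fold lower in T2M. The call was lost without T2M replicate 2 (adjusted p = 0.0677), T2M replicate 3 (0.0620), macrophage replicate 1 (0.186) or macrophage replicate 2 (0.114). It was also lost with the macrophage arrays averaged (adjusted p = 0.149) and with the replicate number as a block (0.0749), a fit in which T2M replicate 3, with no partner of its number, has no weight. The difference of -1.50 for T2M minus neutrophils (adjusted p = 0.392) was -2.99 without neutrophil replicate 1, where it passed (adjusted p = 0.0226), and 0.0018 without neutrophil replicate 2. Likewise neutrophils minus macrophages gave -1.76 (adjusted p = 0.288) and, without neutrophil replicate 2, -3.26 (adjusted p = 0.00988). Eosinophils minus macrophages gave -1.47 (adjusted p = 0.243), which passed without either neutrophil array (adjusted p = 0.0333 each).

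Cxcl10 was highest in eosinophil samples. Its log2 levels were 8.10, 8.56 and 7.87 on T2M arrays, 9.62 and 10.58 on eosinophil arrays, 8.83 and 8.62 on neutrophil arrays, and 7.69 and 7.36 on macrophage arrays. Arrays of different labels did not overlap, but the gap was only 0.06 between T2M and neutrophil arrays and 0.18 between T2M and macrophage arrays. Cxcl10 was 3.79-fold lower in T2M than in eosinophils (-1.92 on the log2 scale, SE 0.34, adjusted p = 0.0197) and 5.97-fold higher in eosinophils than in macrophages (2.58, SE 0.37, adjusted p = 0.00296). Differences of 1.37 for eosinophils minus neutrophils (adjusted p = 0.0618) and 1.21 for neutrophils minus macrophages (adjusted p = 0.158) did not pass, although the first passed without eosinophil replicate 1 (adjusted p = 0.0420). The T2M call was lost without T2M replicate 3 (-1.77, adjusted p = 0.0638), without eosinophil replicate 2 (-1.44, adjusted p = 0.129) and after quantile normalization (-1.61, adjusted p = 0.0558). It was also lost in a fit of those 2 labels alone (adjusted p = 0.0725) and with the replicate number as a block (0.0799), where T2M replicate 3 again has no weight. The call of eosinophils against macrophages held under every alternative run.

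Cxcl13, which encodes the B cell attractant, varied widely between replicates. Its log2 levels were 9.31, 7.68 and 7.12 on T2M arrays, 6.59 and 6.10 on eosinophil arrays, 7.90 and 5.17 on neutrophil arrays, and 5.20 and 4.94 on macrophage arrays. All T2M arrays lay above the eosinophil and macrophage arrays, whereas the neutrophil arrays spread from the T2M range to the macrophage range. The T2M difference from macrophages, 2.96 (SE 0.83), was called at adjusted p = 0.0443 and lost when any T2M, eosinophil or macrophage array was left out, with adjusted p = 0.0528 to 0.212 there. It was also lost with the macrophage arrays averaged (adjusted p = 0.218), with arrays shifted to a common median (0.0540) and after quantile normalization (0.0639). Differences of 1.69 for T2M minus eosinophils (adjusted p = 0.362) and 1.50 for T2M minus neutrophils (adjusted p = 0.448) did not pass. Against macrophages, eosinophils (1.27, adjusted p = 0.343) and neutrophils (1.46, adjusted p = 0.379) did not pass either. The 4 B cell markers measured averaged 6.45 to 6.74 on T2M, 5.56 to 6.23 on eosinophil, 6.26 to 6.89 on neutrophil and 7.19 to 7.56 on macrophage arrays. The list mean was thus highest where Cxcl13 was lowest, but not every marker followed it. Cd79b averaged 8.16 in macrophages and 5.45 to 5.63 elsewhere, whereas Ms4a1 averaged 7.63 in T2M and 7.07 in macrophages. Of the 4 markers, Cd79b was lower than in macrophages in T2M and neutrophils, and Cd79a and Cd79b in eosinophils, with 0 called among the other 3 labels.

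Cxcl14, a chemokine of epithelia, and Cxcl16 had no called difference. Cxcl14 stood at log2 levels of 6.94, 6.03 and 6.50 on T2M arrays, 6.21 and 5.95 on eosinophil arrays, 5.37 and 7.49 on neutrophil arrays, and 4.60 and 4.90 on macrophage arrays. The macrophage arrays were lowest, and the neutrophil arrays held both the highest value and the lowest of the other 7. Its differences from macrophages were 1.74 in T2M (adjusted p = 0.0650), 1.33 in eosinophils (adjusted p = 0.168) and 1.68 in neutrophils (adjusted p = 0.220). Leaving out either neutrophil array brought the first to adjusted p = 0.00842 and the second to 0.0264, and leaving out neutrophil replicate 1 turned the third into 2.74 (adjusted p = 0.0247).

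Cxcl16 was at log2 levels of 9.15, 9.79 and 8.83 on T2M arrays, 8.32 and 7.61 on eosinophil arrays, 8.89 and 10.18 on neutrophil arrays, and 8.56 and 8.32 on macrophage arrays. The eosinophil arrays were lowest, one of them level with a macrophage array, and T2M and neutrophil arrays overlapped. Differences of 1.29 for T2M minus eosinophils (adjusted p = 0.168), -1.57 for eosinophils minus neutrophils (adjusted p = 0.0921) and 1.09 for neutrophils minus macrophages (adjusted p = 0.275) did not pass. The second was -2.22 without neutrophil replicate 1 and passed there (adjusted p = 0.0310).

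Counted over the family, nearly all called differences were against macrophages. A sign of RNA quality from Gapdh moved with these contrasts, whereas that from actin mostly did not. The log2 difference between the 3′ and 5′ control probe sets for Gapdh was 3.43, 2.35 and 2.97 on T2M arrays, 2.41 and 1.08 on eosinophil arrays, and 2.20 and 1.45 on neutrophil arrays, against 1.02 and 1.20 on macrophage arrays. For Gapdh only eosinophil replicate 2 lay within the macrophage range. The same difference for actin was 0.61, -0.04 and -0.02 on T2M arrays and 0.54 and -0.03 on eosinophil arrays. It was -0.10 and 0.03 on neutrophil arrays, and -0.01 and -0.02 on macrophage arrays. The part of RNA quality in the chemokine differences was not tested. For T2M minus macrophages, 5 of 10 members were called higher, Cxcl1, Cxcl2, Cxcl3, Cxcl13 and Pf4, against 6.53% of all genes, and 1 lower, Cxcl9, against 10.6%. An unadjusted p under 0.05 in limma was reached by 8 members and by 6627 of 18193 genes. The members' median log2 difference was 2.35, against 0.18 for all genes, and the arrays of all 10 did not overlap, as for 68.4% of all genes. For eosinophils minus macrophages, 6 of 10 were called higher, Cxcl1, Cxcl2, Cxcl3, Cxcl10, Pf4 and Ppbp, against 5.89% of all genes, and 0 lower, against 11.5%. In limma 6 members had an unadjusted p under 0.05, as had 6033 of 18193 genes. The arrays of all 10 did not overlap, as for 77.8% of all genes. Their median was 2.78, against 0.18 for all genes. For neutrophils minus macrophages, 4 of 10 were called higher, Cxcl1, Cxcl2, Cxcl3 and Pf4, and 0 lower, each against 1.13% of all genes. In limma 6 members had an unadjusted p under 0.05, as had 3387 of 18193 genes. The arrays of 8 members did not overlap, against 59.8% of all genes. Without neutrophil replicate 2 that contrast held 5 calls, against 16.5% of all genes in that fit. With the macrophage arrays averaged, 4 members were called for T2M, 5 for eosinophils and 4 for neutrophils, against 2.52%, 4.99% and 0.462% of all genes. The 3 contrasts share the macrophage arrays, so that their calls are not separate evidence.

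**Figure D3:**
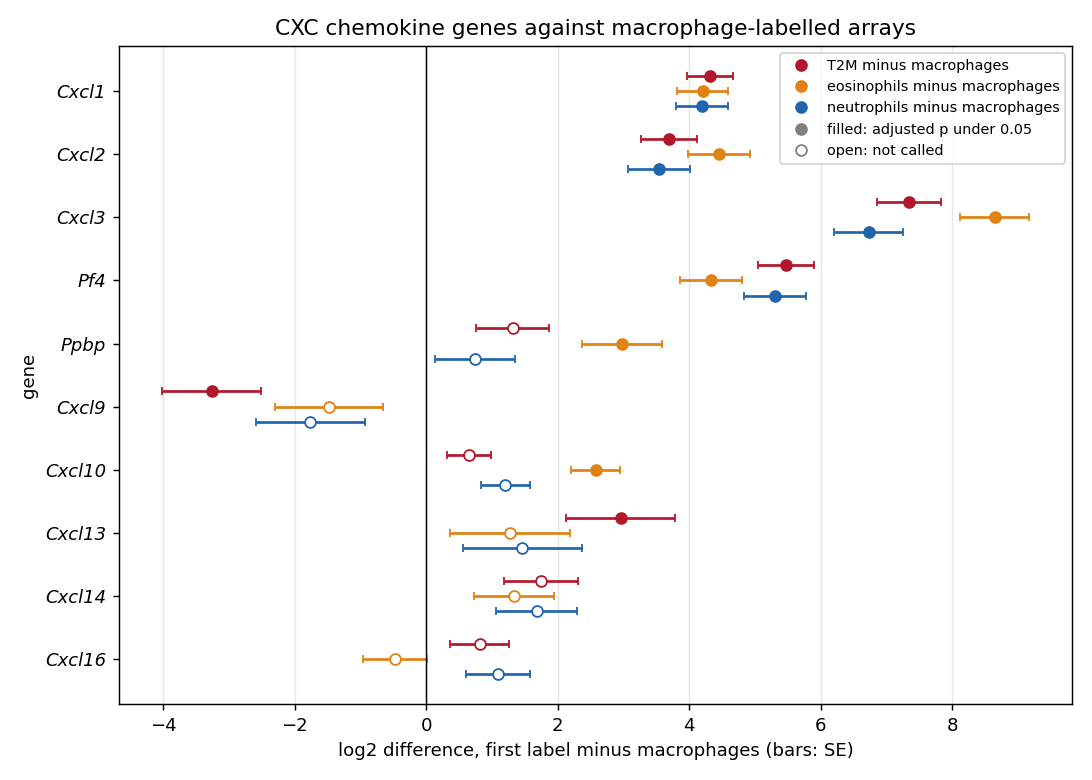
Log2 differences of the 10 genes (x axis) from the macrophage-labelled arrays for T2M, eosinophils and neutrophils; bars are limma's SE, and filled points passed at an adjusted p under 0.05. Cxcl1, Cxcl2, Cxcl3 and Pf4 lay at 3.54 or more in all 3 contrasts, and Cxcl9 lay below 0 in all 3, with the T2M difference of -3.26 called.

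Among T2M, eosinophils and neutrophils, 1 difference in the family was called. For T2M minus eosinophils, Cxcl10 was the 1 member of 10 called lower, against 2.89% of all genes, and 0 were called higher, against 1.57%, by limma. At an unadjusted p under 0.05 there were 6 members, against 3113 of 18193 genes. The arrays of 8 members did not overlap, against 33.5% of all genes. The count of 1 became 0 without T2M replicate 3 or eosinophil replicate 2 and 2 without either neutrophil array, where Cxcl9 (-1.78, adjusted p = 0.273 with all arrays) passed too, against 6.66% of all genes. Members lay on both sides without passing: Cxcl3 (-1.30, adjusted p = 0.202), Cxcl9 and Ppbp below 0, and Cxcl13, Cxcl16 and Pf4 (1.15, adjusted p = 0.211) above it.

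For T2M minus neutrophils, 0 of 10 members passed in limma, against 1.25% of all genes higher and 1.57% lower. At an unadjusted p under 0.05 there were 0 members, against 2955 of 18193 genes. The arrays of 1 member, Cxcl10, did not overlap, against 25.8% of all genes. For eosinophils minus neutrophils, 0 passed as well, against 3.55% higher and 4.33% lower. An unadjusted p under 0.05 was reached by 4 members, against 3932 of 18193 genes. The arrays of 6 members did not overlap, against 40.4% of all genes. Among them, Cxcl3 (1.91, adjusted p = 0.0652) passed without either macrophage array (adjusted p = 0.0364 each). Cxcl1 differed by 0.11 between T2M and eosinophils (95% interval -0.71 to 0.92, adjusted p = 0.944) and by 0.12 between T2M and neutrophils (-0.69 to 0.94, adjusted p = 0.937), and the sign of both turned under other settings.

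**Figure D4:**
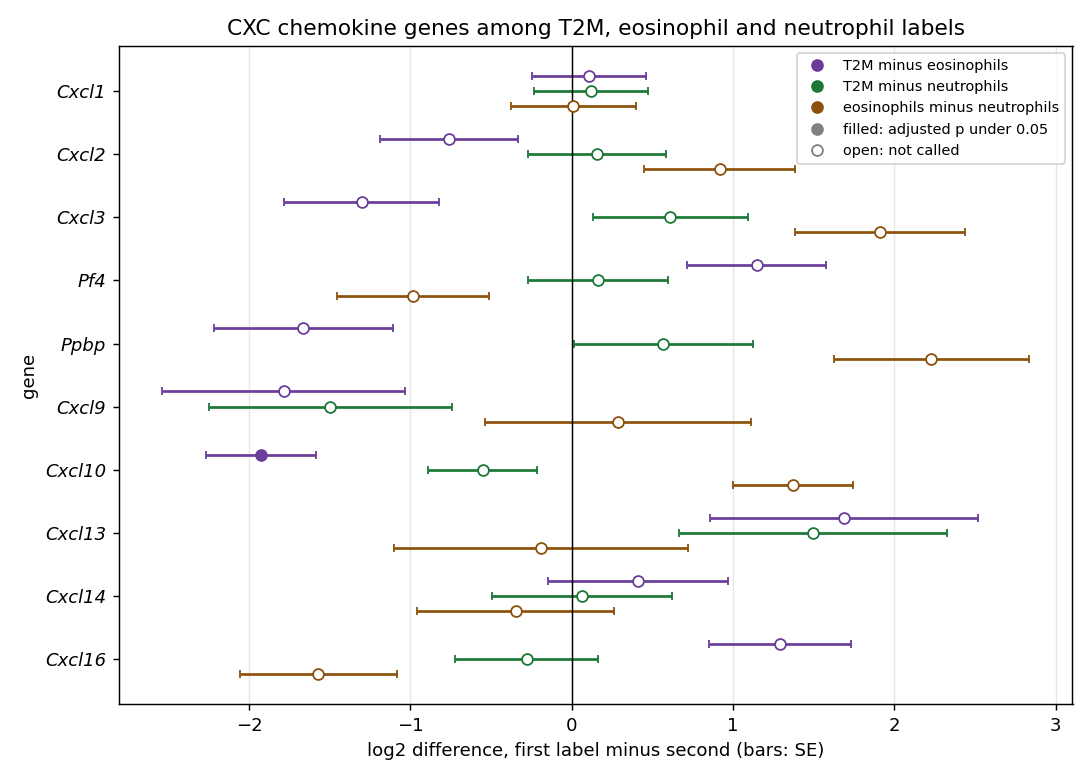
Log2 differences of the 10 genes (x axis) among T2M, eosinophil and neutrophil arrays, first label minus second; bars are limma's SE, and filled points passed at an adjusted p under 0.05. Cxcl10 for T2M minus eosinophils, at -1.92, is the 1 filled point, and Cxcl1 lies near 0 in all 3 contrasts, where its sign turns under other settings.

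When every probe set was tested alone, the 3 Cxcl1 probe sets differed between T2M and macrophages by 4.31, 4.58 and 4.50, each of them called (adjusted p = 6.69e-04, 9.91e-04 and 3.54e-04). The third, 1419209_at, gave -0.82 for T2M minus eosinophils (adjusted p = 0.251), where the kept one gave 0.11, and -0.87 for T2M minus neutrophils (adjusted p = 0.221), where the kept one gave 0.12. Its T2M values, 10.11, 10.67 and 9.62, all lay below its eosinophil values of 10.90 and 11.000 and its neutrophil values of 11.13 and 10.89, unlike those of the kept probe set, which overlapped. Names ending in _x_at and _s_at, such as those of the kept Cxcl1 and Cxcl16 probe sets, mark probes that can match several transcripts, so near copies may add to them. For T2M minus macrophages, Cxcl13 gave 2.96 and 2.19, neither called among all probe sets, and Cxcl14 gave 1.74 and 1.44, the second called (adjusted p = 0.0402). Cxcl9 disagreed, since its other probe set, 1456907_at, stayed between 4.11 and 4.76 on all 9 arrays and differed by -0.06 there. Cxcl16 also disagreed, at 0.81 with the kept probe set and -0.15 with 1418718_at, neither of them called.

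**Figure D5:**
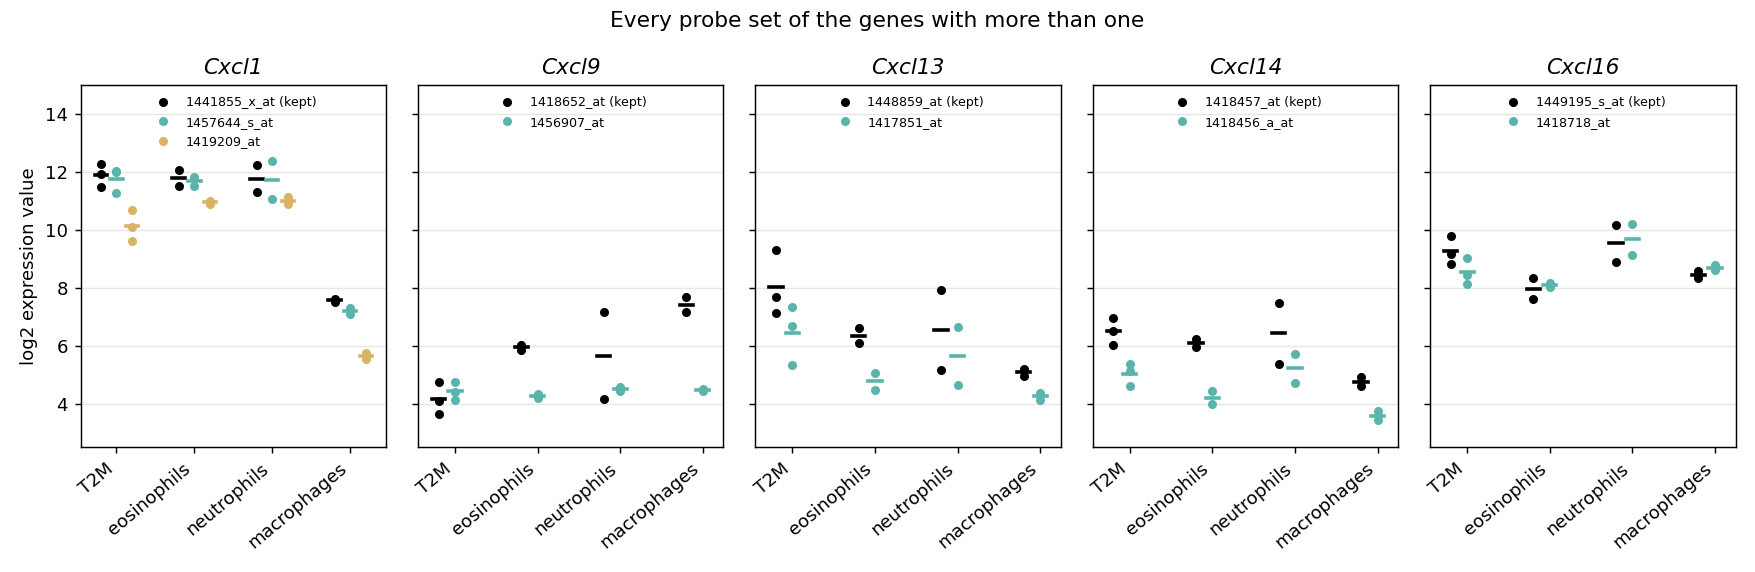
Log2 expression values (y axis) of every probe set of the 5 genes with more than 1, by sorting label (x axis); points are arrays, short lines are label means, and black marks the kept probe set. The 3 Cxcl1 probe sets were all lowest on macrophage arrays, whereas the other Cxcl9 probe set stayed between 4.11 and 4.76.

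Likeness of pattern is given as Pearson correlations over 9 arrays, which fall into 4 labels and share the low or high macrophage values. Cxcl2 and Cxcl3 correlated at 0.988 over 9 arrays and at 0.845 over the 7 without macrophages. For Cxcl1 and Pf4 the values were 0.977 and 0.614, for Cxcl1 and Cxcl3 0.949 and -0.0590, and for Cxcl3 and Pf4 0.894 and -0.580, so that the likeness of the last 2 pairs rests on the macrophage arrays. Outside the family, the genes nearest to Cxcl3 were Il1rn, which encodes the interleukin-1 receptor antagonist (0.995), Clec4e (0.987) and Cdkn1a (0.985), and those nearest to Cxcl2 were Il1rn (0.981), Socs3 (0.980) and Clec4e (0.978). Nearest to Cxcl1 were the chemokine gene Ccl8 (0.988), Rhoc (0.981) and Xpnpep2 (0.980), and over the 7 arrays without macrophages these correlations were 0.664, 0.631 and 0.469. Nearest to Pf4 were Ccl8 (0.992), the amino acid transporter gene Slc7a2 (0.990) and Retnla, a resistin-like gene (0.988). For Cxcl10 they were Uox (0.977), Lhx1 (0.971) and Ikbke (0.970), and for Ppbp Slc25a20 (0.972), Cyp27b1 (0.964) and Dnajb2 (0.962). Some of these varied little at low levels. Label means were 4.01 to 4.76 for Uox, 5.17 to 6.27 for Lhx1 and 3.29 to 4.62 for Cyp27b1, against a median of 5.59 over all values. The genes outside the family were picked for the highest correlation over these same 9 arrays. Without the macrophage arrays, those named for members other than Cxcl1 correlated at 0.762 to 0.989. These 7 arrays took part in the picking, so the values are no separate check.

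Of 8 CXC receptor genes, 7 were analysed. The counts called in this list and those below stand beside these shares of all genes. Against macrophages, 6.53% were higher and 10.6% lower in T2M, 5.89% and 11.5% in eosinophils, and 1.13% and 1.13% in neutrophils. For T2M minus eosinophils they were 1.57% and 2.89%, for T2M minus neutrophils 1.25% and 1.57%, and for eosinophils minus neutrophils 3.55% and 4.33%. Cxcr2, the receptor gene for the products of Cxcl1, Cxcl2 and Cxcl3, stood at log2 levels of 8.41, 9.08 and 8.86 on T2M arrays, 11.57 and 11.64 on eosinophil arrays, 9.71 and 8.55 on neutrophil arrays, and 6.71 and 5.89 on macrophage arrays. All 7 arrays of the first 3 labels lay above both macrophage arrays, as for Cxcl1, Cxcl2 and Cxcl3 but not for Ppbp. The difference in limma was 2.48 in T2M (adjusted p = 0.00619), 5.30 in eosinophils (adjusted p = 3.16e-04) and 2.83 in neutrophils (adjusted p = 0.0145). Against macrophages, 3 of 7 receptor genes were called higher in T2M, Cxcr2, Cxcr4 (1.05) and the scavenging receptor gene Ackr3 (4.18), 2 in eosinophils, Cxcr2 and Cxcr4 (1.32), and 1 in neutrophils. For T2M minus eosinophils Cxcr2 was lower (-2.82, adjusted p = 0.00915), for T2M minus neutrophils Ackr1 was higher (1.28), and for eosinophils minus neutrophils Cxcr2 was higher (2.47), with 6 of 7 not called in each. Cxcr3, whose product binds those of Cxcl9 and Cxcl10, Cxcr5 and Cxcr6 were called in no contrast.

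Among 5 other CXC ligand genes is Cxcl11, related to Cxcl9 and Cxcl10. RefSeq's annotation of the mouse reference assembly types it as a transcribed pseudogene. Whether this type holds on the BALB/c background of these mice was not tested. Cxcl11 stood at log2 levels of 4.89, 4.90 and 4.87 on T2M arrays, 8.49 and 8.998 on eosinophil arrays, 4.08 and 4.65 on neutrophil arrays, and 4.92 and 4.57 on macrophage arrays. The eosinophil arrays alone were high. Cxcl11 was lower in T2M than in eosinophils (-3.86, adjusted p = 9.33e-04) and higher in eosinophils than in neutrophils (4.38, adjusted p = 7.50e-04) and macrophages (3.998, adjusted p = 1.74e-04). Cxcl15, a lung epithelial chemokine gene, was higher than in macrophages in T2M (4.38, adjusted p = 0.00829) and in eosinophils (2.94, adjusted p = 0.0450). Beside it, 8 lung epithelium markers averaged 8.14 to 9.33 on T2M, 8.03 to 8.19 on eosinophil, 7.17 to 7.75 on neutrophil and 6.44 to 6.72 on macrophage arrays, and their part in the Cxcl14 and Cxcl15 levels was not tested. Cxcl5, Cxcl12 and Cxcl17 were called in no contrast, and 0 of 5 were called for T2M or macrophages against neutrophils.

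The list of inflammatory signalling genes, many of them upstream of Cxcl1, Cxcl2 and Cxcl3, had its highest mean level on eosinophil arrays, at 10.74 to 10.997, against 9.67 to 9.75 on T2M, 9.54 to 9.78 on neutrophil and 8.68 to 8.85 on macrophage arrays. Of 13 genes analysed, 8 were higher in eosinophils than in macrophages, against 5.89% of all genes, and 0 lower, against 11.5%. Those higher included the cytokine genes Il1a (6.71), Tnf (3.31) and Il1b (2.28) and the receptor genes Tlr4 (4.19) and Tlr2 (3.88). Against macrophages 5 were higher in T2M, Il1a (6.66), Tlr4 (1.58), Nfkbiz (1.53), Tnfaip3 (1.36) and Il1b (0.78), and 3 in neutrophils, Il1a (4.52), Tlr4 (3.06) and Il1b (1.74). Of the 8 not called in T2M by limma, the largest differences went both ways. Rela (-2.14, adjusted p = 0.0879) and Myd88 (-1.18, adjusted p = 0.0557) lay lower than in macrophages, and Tlr2 (1.35, adjusted p = 0.126) higher. For T2M minus eosinophils, 4 were lower, Tnf (-3.02), Tlr4 (-2.60), Tlr2 (-2.53) and Il1b (-1.50), and 9 were not called. For T2M minus neutrophils, Il1a was higher (2.14) and Il1b lower (-0.96), and for eosinophils minus neutrophils 4 were higher, Tnf (3.63), Il1a (2.20), Nfkbiz (1.63) and Tnfaip3 (1.17).

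Of 12 interferon signalling genes analysed, 3 were lower in T2M than in eosinophils, against 2.89% of all genes. These were the interferon-gamma receptor genes Ifngr1 (-2.12) and Ifngr2 (-1.12) and the kinase gene Jak2 (-1.67), while Irf9 (-2.04) was not called. Against macrophages, the contrast in which Cxcl9 was lower in T2M, 4 were lower, Ifngr1 (-2.37), Stat2 (-1.66), Tyk2 (-1.06) and Ifngr2 (-0.87), and Ifnar1 was higher (1.64). Ifngr1 was also lower in T2M than in neutrophils (-1.80). For eosinophils minus macrophages, Ifnar1 (2.32) and Jak2 (1.61) were higher and Tyk2 lower (-1.29), and 0 were called between neutrophils and eosinophils or macrophages. Ifng itself was called in no contrast, at log2 means of 3.77 in T2M, 3.51 in eosinophils, 3.47 in neutrophils and 3.43 in macrophages.

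Of 7 lymphotoxin pathway genes, which lie upstream of Cxcl13 in lymphoid tissue, Ltbr (-1.15) and Tnfrsf1a (-1.90) were lower in T2M than in macrophages, and 0 were called in the other contrasts. Of 8 genes for proteases that shed or cut chemokines, Dpp4, whose product trims that of Cxcl10, was lower than in macrophages in T2M (-4.17, adjusted p = 0.00179), eosinophils (-4.22, adjusted p = 0.00181) and neutrophils (-3.31, adjusted p = 0.0185). Mmp9, a gelatinase gene, was higher than in macrophages in T2M (3.96) and eosinophils (6.19), and Mmp8 (4.08) and Adam17 (1.17) in eosinophils. Mmp8 was lower in T2M than in eosinophils (-4.59), and Mmp8 (3.41) and Mmp9 (4.27) were higher in eosinophils than in neutrophils. For T2M minus neutrophils 0 of 8 were called, and Adam10, whose product sheds that of Cxcl16, was called in no contrast.

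Markers of other lung cells also differed from macrophages, beside the chemokine differences there. Of 8 endothelial and stromal markers, 5 were called higher in T2M, against 6.53% of all genes. In eosinophils and neutrophils 0 were, near the 5.89% and 1.13% of all genes there. The list averaged 7.26 to 7.49 on T2M, 6.09 to 6.63 on eosinophil, 5.74 to 6.96 on neutrophil and 5.39 to 5.55 on macrophage arrays. Of 6 T cell and innate lymphoid markers, 2 were higher in T2M, 1 in eosinophils and 0 in neutrophils, and the list averaged 6.25 to 6.74 on T2M, 6.04 to 6.16 on eosinophil, 5.67 to 5.84 on neutrophil and 5.07 to 5.36 on macrophage arrays. Of the lung epithelium markers, 4 were higher in T2M, 2 in eosinophils and 1 in neutrophils. Of the dendritic cell markers, 4 were lower in T2M, 5 in eosinophils and 2 in neutrophils, against 10.6%, 11.5% and 1.13% of all genes. The part of such cells in the chemokine levels was not tested.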

How the data were processed

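RNA of 9 sorted cell samples was measured on Affymetrix mouse arrays. The values deposited by the authors are log2 expression values per probe set; the submitters' processing notes name RMA, affy and limma, with no versions, and no other step is given in the sources used here. Array medians were 5.48 to 5.68. With 2 or 3 arrays per label, their number limits the precision. Whether donor pools were independent is not stated beyond the replicate numbers. The p-values set differences of label means against the spread among arrays of the same label, pooled over the labels. If replicates share a pool, that spread does not cover differences between pools of mice.

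Probe sets with 1 gene symbol in the platform annotation (34945, against 932 with several and 9160 with none, besides 64 controls) were reduced to the one with the highest mean for each of 18193 genes. Of them, 34741 matched a RefSeq gene, and 0 symbols changed. limma 3.58.1 in R 4.3.3 fitted 4 label means to all 9 arrays, with 6 contrasts and a moderated F test, two-sided. P-values were adjusted by Benjamini-Hochberg over all genes, and a gene was called at an adjusted p under 0.05. The fit was tested on simulated data. The text names all 10 members, the called genes and some uncalled ones of each pathway list, and the 3 genes most like each member that passed the F test. Pathway lists covered CXC receptors, other CXC ligands, interferon and inflammatory signalling, the lymphotoxin pathway and proteases; marker lists covered 9 cell types. Members and lists were chosen with earlier results of these data known. Alternatives changed the probe set summary, scaling, filter, prior, weights, samples and replicate block.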

Additional observations from a re-analysis of the deposited data

How the results depend on the processing

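The 12 calls of Cxcl1, Cxcl2, Cxcl3 and Pf4 against macrophages kept their direction under every alternative, and all but that of Cxcl2 in neutrophils kept their call. The count of chemokine genes called for T2M minus eosinophils, 1 as reported, was 0 after quantile normalization, with only the 2 labels compared and with the replicate block, and 0 to 2 when 1 array was left out. For eosinophils minus neutrophils, 0 as reported, it was 3 with the mean of all probe sets, and 1 with dim genes left out, with a trend and robust prior, with macrophage arrays averaged and without the replicate 1 arrays of T2M and eosinophils, whose actin 3′ and 5′ control probe sets differed by 0.61 and 0.54 (log2). Leaving out 1 array gave counts of 0 to 1 for T2M minus neutrophils, 4 to 7 for T2M minus macrophages, 0 to 1 for eosinophils minus neutrophils, 5 to 8 for eosinophils minus macrophages, 4 to 5 for neutrophils minus macrophages and 4 to 10 for the F test. Cxcl1 for T2M minus eosinophils was -0.21 with the mean of probe sets, -0.054 with array weights and -0.17 to 0.39 with 1 array left out. Cxcl1 for T2M minus neutrophils was -0.23 and -0.042 under the same settings, -0.069 without those 2 arrays, and -0.34 to 0.58 with 1 array left out. Cxcl9 for T2M minus neutrophils was 0.0018 without neutrophil replicate 2 and -2.99 without neutrophil replicate 1. The causes were not tested.

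Over all genes, counts moved more. Array weights gave 1426 for T2M minus eosinophils (812 as reported), 53 for T2M minus neutrophils (513), 10163 for T2M minus macrophages (3123), 526 for eosinophils minus neutrophils (1433), 6400 for eosinophils minus macrophages (3163) and 9069 for the F test (3247). In that order of contrasts, with neutrophils minus macrophages (412) before the F test, fitting 2 labels gave 397, 0, 4988, 215, 5219 and 151, averaging the macrophage arrays 383, 108, 459, 762, 907, 84 and 965, and testing every probe set 1421, 804, 5689, 2557, 5797, 676 and 5980. The replicate block gave 360, 43 and 1733 for T2M against the others, 263 for neutrophils minus macrophages and 2144 for the F test; same-numbered T2M and eosinophil arrays deviated together at r of 0.498 and 0.437, and those of the other 5 pairs of labels at -0.18 to 0.05. Nothing in the labels ties the numbers to a shared pool or day and 2 pairs are too few to settle it, so the block was kept as an alternative. With it the calls of Cxcl9 for T2M minus macrophages (adjusted p = 0.0749), Cxcl10 for T2M minus eosinophils (0.0799) and Ppbp in the F test (0.0712) were lost, and Cxcl13 passed the F test (0.0477). Leaving out 1 array gave 192 to 1211, 108 to 897, 434 to 5070, 710 to 1821, 862 to 4320, 75 to 3009 and, for the F test, 956 to 5449. A common median for all arrays moved the all-gene difference by -0.10 for T2M minus eosinophils and -0.14 for T2M minus macrophages, and the lower share of calls there was 73.23%, against 61.96% as reported. Quantile normalization gave 53.53% against 64.78% for T2M minus eosinophils, and 43.46% against 55.56% for T2M minus neutrophils. The settings with every probe set and without the 2 arrays were chosen after seeing the data. Ppbp was not in the set left by the filter on dim genes. Signal over background was not tested, since no detection calls were used here.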
